A study of Mus musculus with 23 samples.

Results

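Genes of polyamine metabolism were followed through RNA-seq and ribosome profiling of the mouse intestine. The 8 genes were taken by name, with no threshold on a measured value: Odc1, Amd1, Srm and Sms, which encode the enzymes of synthesis, Oaz1, Oaz2 and Azin1, which encode its regulators, and Sat1, which encodes the acetylating enzyme that starts polyamine breakdown and export. All 8 were present among the 22350 genes of the RNA-seq files, the 22230 genes of the organoid Ribo-seq files and the 22314 genes of the Ribo-seq files from mice. For several of them the organoid Ribo-seq files also hold separate entries for the 5′ untranslated region (5′ UTR), the stretch of mRNA ahead of the coding sequence.

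Polyamines (putrescine, spermidine and spermine) are small, positively charged molecules that bind RNA and are needed for growth, also in the renewing intestinal epithelium. ODC1 makes putrescine from ornithine, AMD1 makes the decarboxylated S-adenosylmethionine that donates the aminopropyl group, and SRM and SMS add that group to give spermidine and then spermine. Much of the pathway is controlled at translation. Antizymes (OAZ1, OAZ2) bind ODC1 and send it to the proteasome, and their own synthesis needs a frameshift that polyamines favour, while AZIN1 is an ODC1-like protein that captures antizyme. AMD1, ODC1, AZIN1 and SAT1 are known for control by upstream open reading frames (uORFs), short frames in the 5′ UTR.

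The study asked what loss of Rptor, an essential part of the growth-regulating complex mTORC1, does to intestinal stem cells. All samples came from adult C57BL/6 mice, and there were 23 libraries in 7 groups. Organoids, which are epithelial cultures grown from crypts, carried VillinCre.ERT2, a tamoxifen-inducible Cre driven in the whole intestinal epithelium. RNA-seq covered WT organoids (VillinCre.ERT2.RPL22.HA, 2 lines), Rptor fl/fl organoids (VillinCre.ERT2.Rptor.fl/fl, 2 lines) and stem cell enriched (SCe) organoids (VillinCre.ERT2.RPL22.HA, 3 lines), and the WT and Rptor fl/fl lines had 2 technical libraries each, which were summed. The SCe organoids had WT Rptor and were cultured with 10 μM of CHIR 99021, a GSK3 inhibitor, and 1.5 mM of valproic acid. Ribo-seq, the sequencing of ribosome-protected fragments (footprints), covered Rptor fl/fl organoids (VillinCre.ERT2.Rptor.fl/fl.RPL22.HA, 3 replicates) and SCe organoids (VillinCre.ERT2.RPL22.HA, 3 replicates). It also covered whole small intestine of mice, 3 of them WT (Lgr5Cre.ERT2.RPL22.HA) and 3 Rptor fl/fl (Lgr5Cre.ERT2.Rptor.fl/fl.RPL22.HA), in which Cre is driven in crypt base stem cells. RPL22.HA is a tagged ribosomal protein by which ribosomes were pulled down after 100 μg/ml of cycloheximide. The sample annotation used here lists this cycloheximide dose for all 23 libraries, RNA-seq included. The study's methods describe the step for ribosome profiling and do not mention it for RNA-seq. The RNA-seq Rptor fl/fl organoids are labelled without RPL22.HA, so in RNA-seq the loss of Rptor and the absence of the tag cannot be told apart, and translation efficiency of Rptor fl/fl sets footprints of one genotype over RNA of another. The labels name the Rptor fl/fl and WT samples untreated, whereas the study's methods describe induction with tamoxifen. SCe and Rptor fl/fl differ in culture as well as in genotype, and these cannot be told apart either.

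Between 23802944 and 67598878 reads were assigned per RNA-seq library, between 1169578 and 8584977 per organoid Ribo-seq library and between 772077 and 8238388 per mouse library. Levels are given as CPM, the counts per 1000000 reads of the scaled library size. Rptor mRNA measured 51.4 and 47.9 CPM in the WT lines, and 14.8 and 15.5 CPM where Rptor was floxed (log2 difference -1.71, adjusted p = 0.00516). Rptor footprints did not separate the groups as clearly. They were at 17.3, 18.7 and 15.9 CPM in the organoid libraries labelled Rptor fl/fl and at 15.2, 41.9 and 21.0 CPM in SCe (adjusted p = 0.318), and at 32.6 to 36.9 CPM in Rptor fl/fl mice and 39.7 to 44.8 CPM in WT mice (adjusted p = 0.150). Among libraries of a group, SCe replicate 1 of the RNA-seq stood apart from replicates 2 and 3, and the SCe Ribo-seq libraries differed more among themselves than the Rptor fl/fl ones. Epithelial markers were present in every group (none of 6 at 0). Of 6 stem cell markers 0 passed as higher and 2, Olfm4 and Ascl2, passed as lower in SCe RNA against WT. Lgr5 was at 336, 223 and 219 CPM in SCe and 212 and 194 CPM in WT, higher in each SCe line without passing (0.35, adjusted p = 0.244), and Axin2 (0.11) and Mex3a (-0.0018) overlapped. Olfm4 was at 42.4 to 134 CPM in SCe and 2821 and 4371 CPM in WT, while Smoc2 was at 418 to 806 CPM in SCe and 267 and 294 CPM in WT (adjusted p = 0.0676). The mouse libraries held genes of other cells too: the summed level of 5 smooth muscle markers was 1129 to 1359 CPM, and that of 3 erythroid markers was 436 to 540 CPM in Rptor fl/fl and 81.5 to 95.9 CPM in WT mice. In these bulk samples fewer cells of a type and less RNA per cell cannot be told apart.

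The short upstream frames are printed because the 5′ footprints given further on lie in the regions that hold them, for Odc1 only in part. Each runs from an ATG to the next stop codon in its frame, 5′ to 3′, with the start and stop codons in capitals, and was read from the GENCODE vM21 transcript (mm10 build). Only frames of up to 30 bases are shown. Frames that start at a codon other than ATG were not searched. The printed frames were not matched to the uORFs known for control, so which of them are among those is not said here.
Amd1, chr10:40302155-40302175, minus strand: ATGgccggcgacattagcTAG
Odc1, chr12:17544921-17544947, plus strand: ATGacgacgtgctcggcgtataagTAG
Azin1, chr15:38514482-38514505, minus strand: ATGatagggggttccatctccTAA
Azin1, chr15:38501507-38501536, minus strand: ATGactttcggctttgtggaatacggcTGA
Sat1, chrX:155216271-155216285, minus strand: ATGgtgccagccTGA
The Amd1 frame of 21 bases starts at base 12 of the mRNA, and the same letters stand at base 13 of Amd2, a close copy of Amd1 whose coding sequence matches it at 1004 of 1005 bases. The second Azin1 frame shown ends 1 base before the start codon of the coding sequence. In Odc1 a further frame of 33 bases lies nearer to the coding sequence, and in Sat1 a frame of 135 bases begins in the 5′ UTR and ends 61 bases inside the coding sequence in another frame. A shorter Odc1 5′ UTR holds the frame of 33 bases and not the one printed. Its entry was given 100 footprints in SCe and 160 in Rptor fl/fl, and that of the longer 5′ UTR 102 and 200.

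The 5′ UTR of Azin1 holds 3 or 6 ATGs depending on the transcript. Those of the longer Odc1 transcript and of Sat1 hold 2 each, and that of Amd1 holds 1. The longest Sms 5′ UTR, of 334 bases, holds 4. The 5′ UTRs of Srm, Oaz1 and Oaz2 hold 0. ATG was searched on the transcript strand, and it is common: 85.6% of annotated 5′ UTRs within 10% of the length of Amd1's hold it, 92.4% at the length of that Odc1 5′ UTR, 97.3% at that of the longer Azin1 5′ UTR and 64.5% at that of Sat1.

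For the antizymes the site of interest lies inside the coding sequence. The capitals mark the stop codon that ends the first reading frame, and the annotated coding sequence leaves out its first base to go on in the next frame. These were read from the mm10 genome.
Oaz1, chr10:80828283-80828309, plus strand: cggtggtgctccTGAtgtccctcaccc
Oaz2, chr9:65686260-65686286, plus strand: ctgtggtgctccTGAtgcccctcaccc
The letters were the same at 25 of 27 positions. The first frame has 68 codons before this stop in Oaz1 and 32 in Oaz2, and the frame after it 159 and 157 codons. The files count footprints over the whole coding entry, so the frames before and after the site were not measured separately.

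Levels between genes were compared per length (counts per kilobase, scaled to the same total in each library, on the scale of TPM). Oaz1 had the highest level per length of the 8 genes in every group, in RNA and in footprints. In WT organoid RNA it stood at 549 ± 4.13 (SD, n = 2 lines), followed by Odc1 at 162 ± 16.9, Azin1 at 114 ± 8.56, Sat1 at 106 ± 2.27 and Amd1 at 100.0 ± 1.06. Srm at 57.7 ± 3.26, Sms at 45.7 ± 0.126 and Oaz2 at 15.4 ± 1.63 came last. Only Azin1 and Sat1 overlapped between lines among neighbours in this order. Odc1 was also second in Rptor fl/fl and SCe RNA, at 177 ± 32.9 (n = 2) and 221 ± 34.4 (n = 3), and Oaz2 was last in both, although in SCe at 42.5 ± 4.60 it overlapped with Sms at 48.8 ± 7.49.

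**Figure D1:**
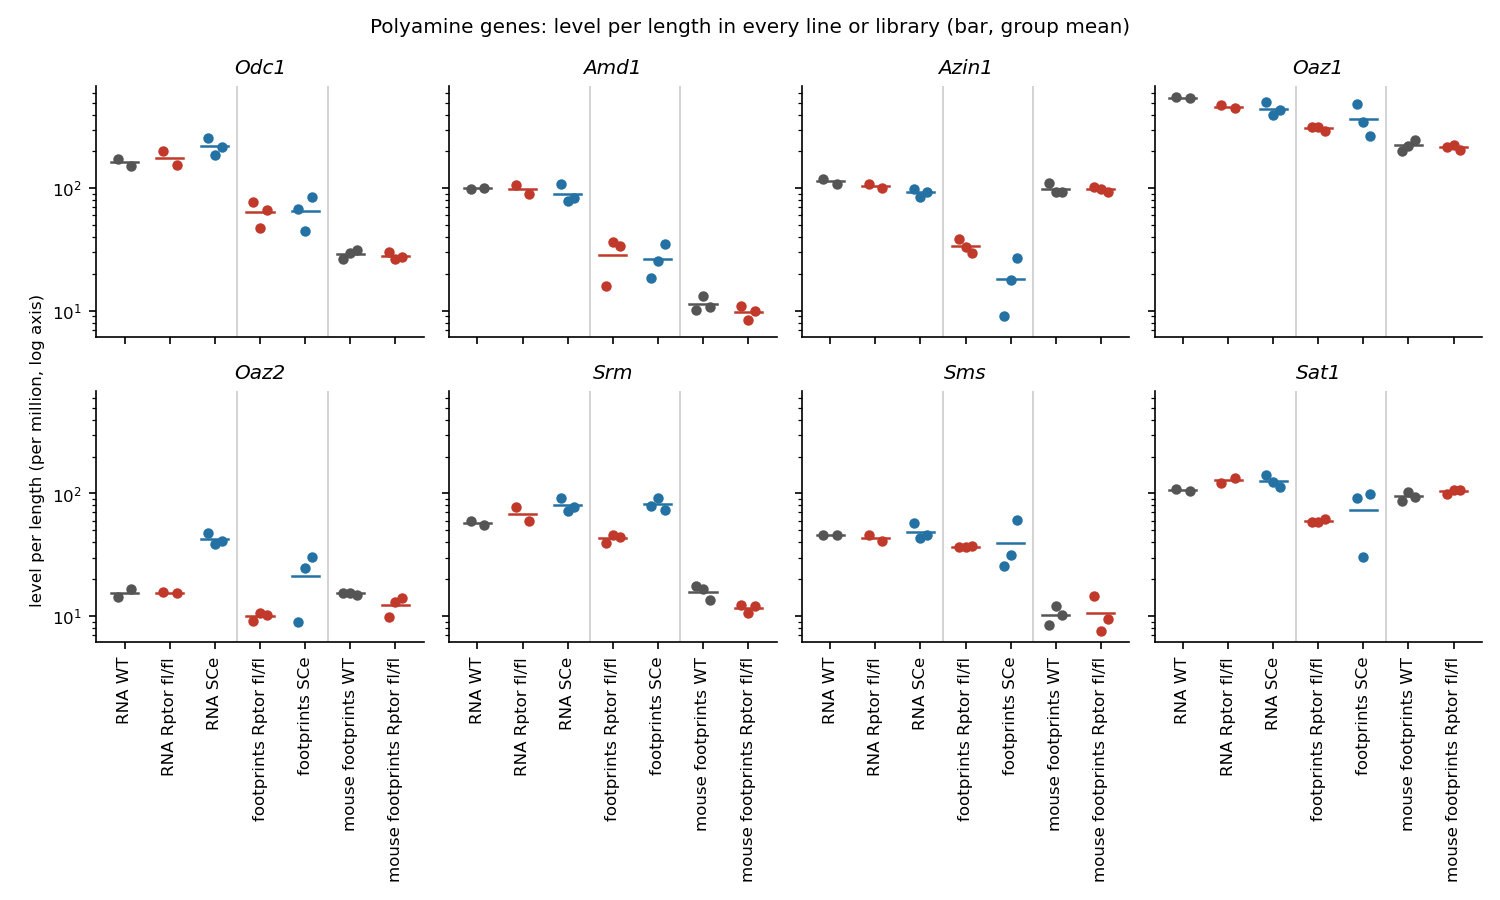
Level per length of each gene (counts per kilobase on the TPM scale, log axis) in each RNA-seq line and each Ribo-seq library, with bars at the group means. Oaz1 is highest in all 7 groups, and Oaz2 RNA is higher in the 3 SCe lines than in the WT and Rptor fl/fl lines.

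In footprints the order below Oaz1 was less settled. In Rptor fl/fl organoids Oaz1 was at 311 ± 14.4 (SD, n = 3), Odc1 at 63.5 ± 15.2 and Sat1 at 59.7 ± 2.11, and Oaz2 was last at 9.97 ± 0.798. In SCe organoids Oaz1 was at 368 ± 113, while every other neighbouring pair overlapped, from Srm at 81.6 ± 9.22 down to Azin1 at 18.0 ± 8.97. By deposited TPM Oaz1 kept the highest mean in both organoid groups, but the order below it changed. In SCe Srm went from rank 2 to 4, Sms from 5 to 3, Amd1 from 6 to 8 and Azin1 from 8 to 6. In Rptor fl/fl Azin1 went from rank 6 to 4. In SCe replicate 3 the TPM of Sat1, 140, was above that of Oaz1, 88.6. In mice Azin1 (98.6 ± 9.74 in WT, n = 3) and Sat1 (94.7 ± 7.56) stood above Odc1 (29.1 ± 2.35) without overlap. The mouse entries include the 5′ UTR and the organoid coding entries do not, so these levels do not have the same base.

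Set against mRNA by level per nominal length, the synthesis enzyme Odc1 and the antizyme inhibitor Azin1 carried few footprints on their coding entries. Footprints on the 5′ UTR are not part of this ratio. In SCe the level of footprints over that of RNA was 0.297 for Odc1 and 0.195 for Azin1, which placed them at the 9.77th and 3.95th percentile of 10737 genes with a median of 0.865. In Rptor fl/fl organoids the ratios were 0.359 and 0.324, at the 19.0th and 16.4th percentile around a median of 0.761. Srm (1.01 and 0.629), Sms (0.803 and 0.858) and Oaz1 (0.827 and 0.672) lay nearer to the median of their group. Sat1 (0.587 and 0.464) was below the median too, at the 29.9th and 28.1st percentile. So was Oaz2 (0.5 and 0.642), at the 23.8th and 41.7th percentile. The counting split the footprints of Amd1 evenly with Amd2 in SCe replicates 1 and 2 and in Rptor fl/fl replicate 1, and gave Amd2 0 in the other libraries. The ratio of Amd1 alone was 0.293 in SCe and 0.292 in Rptor fl/fl (9.54th and 13.5th percentile), and with Amd2 added it was 0.448 and 0.340 (19.9th and 17.5th percentile). By deposited TPM the low place of Odc1 and Azin1 did not hold in Rptor fl/fl. Mean TPM of footprints and RNA there was 48.2 and 142 for Odc1 and 32.4 and 86.8 for Azin1. For Oaz1 it was 89.3 and 456, for Srm 9.37 and 59.9 and for Sms 7.59 and 35.4. Both genes thus lay above these 3 in footprints over RNA, whereas in SCe they stayed below them. Percentiles were not computed from TPM.

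In the RNA comparison of Rptor fl/fl with WT organoids, 1 of the 8 genes passed the threshold. Oaz1 mRNA was lower. The WT lines had 304 and 300 CPM of it, and the lines with floxed Rptor 237 and 235 CPM. The lines of the 2 genotypes did not overlap, and the log2 difference was -0.36 (SE 0.058, adjusted p = 0.0218, edgeR quasi-likelihood test with Benjamini-Hochberg adjustment over 14131 genes). Over all genes tested, 22.6% passed in either direction, 11.6% higher and 11% lower. The call was lost when any 1 of the 4 lines was left out, with adjusted p between 0.0514 and 0.119.

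The synthesis enzymes and Sat1 did not pass in this comparison. Odc1 was at 226 and 181 CPM in Rptor fl/fl and at 215 and 188 CPM in WT, and these overlapped (log2 difference 0.02, 95% interval -0.33 to 0.37). Amd1 was at 176 and 156 CPM against 180 and 184 CPM (-0.13, interval -0.34 to 0.07), and Srm at 53.2 and 43.1 CPM against 45.4 and 42.2 CPM (0.14, interval -0.18 to 0.45). Azin1 and Sms were lower in both Rptor fl/fl lines than in either WT line without passing (adjusted p = 0.122 and 0.108). Sat1, at 73.5 and 84.7 CPM against 71.0 and 69.4 CPM, was higher in both lines (0.17, adjusted p = 0.195). Oaz2 was at 14.3 and 14.8 CPM, next to 14.4 and 16.8 CPM in WT (-0.10, interval -0.39 to 0.18). The median difference of the 8 genes was -0.12, beside -0.0049 over all genes. Cell type markers differed between these lines too: the summed level of 5 Paneth cell markers was 595 to 1256 CPM in Rptor fl/fl and 3580 to 4553 CPM in WT, and that of 5 goblet cell markers 2812 to 3870 and 1552 to 1654 CPM. Their part in the values above was not tested.

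SCe and WT organoids share the genotype and differ in culture, and here 6 of the 8 genes passed, 5 of them higher, where 42.3% of all 14925 genes passed in either direction, 22.4% higher and 19.9% lower. Oaz2, the less abundant antizyme gene, rose most. Its RNA was at 42.7, 45.0 and 45.5 CPM in the SCe lines and at 14.2 and 16.6 CPM in the WT lines, far apart and with little spread (log2 difference 1.53, SE 0.098, adjusted p = 0.00128). Oaz1 went the other way, at 244, 247 and 259 CPM in SCe and 300 and 296 CPM in WT, again without overlap (-0.25, SE 0.065, adjusted p = 0.0320).

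The synthesis enzymes rose in SCe with the exception of Amd1. Odc1 was at 278, 264 and 291 CPM in SCe and at 212 and 185 CPM in WT (0.48, SE 0.093, adjusted p = 0.0138). Srm was at 61.3, 61.7 and 63.4 CPM against 44.8 and 41.6 CPM (0.52, SE 0.068, adjusted p = 0.00488). All SCe lines were above both WT lines for these genes. Sms rose by less, at 68.0, 65.4 and 65.6 CPM against 56.2 and 57.3 CPM (0.23, SE 0.060, adjusted p = 0.0349), and Sat1 was at 81.4, 91.6 and 80.2 CPM against 70.1 and 68.4 CPM (0.29, SE 0.083, adjusted p = 0.0444). Amd1 (-0.12, adjusted p = 0.188) and Azin1 (-0.20, adjusted p = 0.0930) did not pass. Leaving out SCe replicate 1, which stood apart, kept these 6 calls and added Amd1, while leaving out WT line 2 left Oaz2 alone. Oaz2 passed under each alternative tried, with adjusted p of at most 0.0226. The summed level of 5 goblet cell markers was 242 to 426 CPM in SCe and 1531 to 1631 CPM in WT, and that of 5 stromal markers, of which 1 and 2 were at 0, was 70.0 to 115 and 2.31 to 3.36 CPM. Their part in these differences was not tested.

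**Figure D2:**
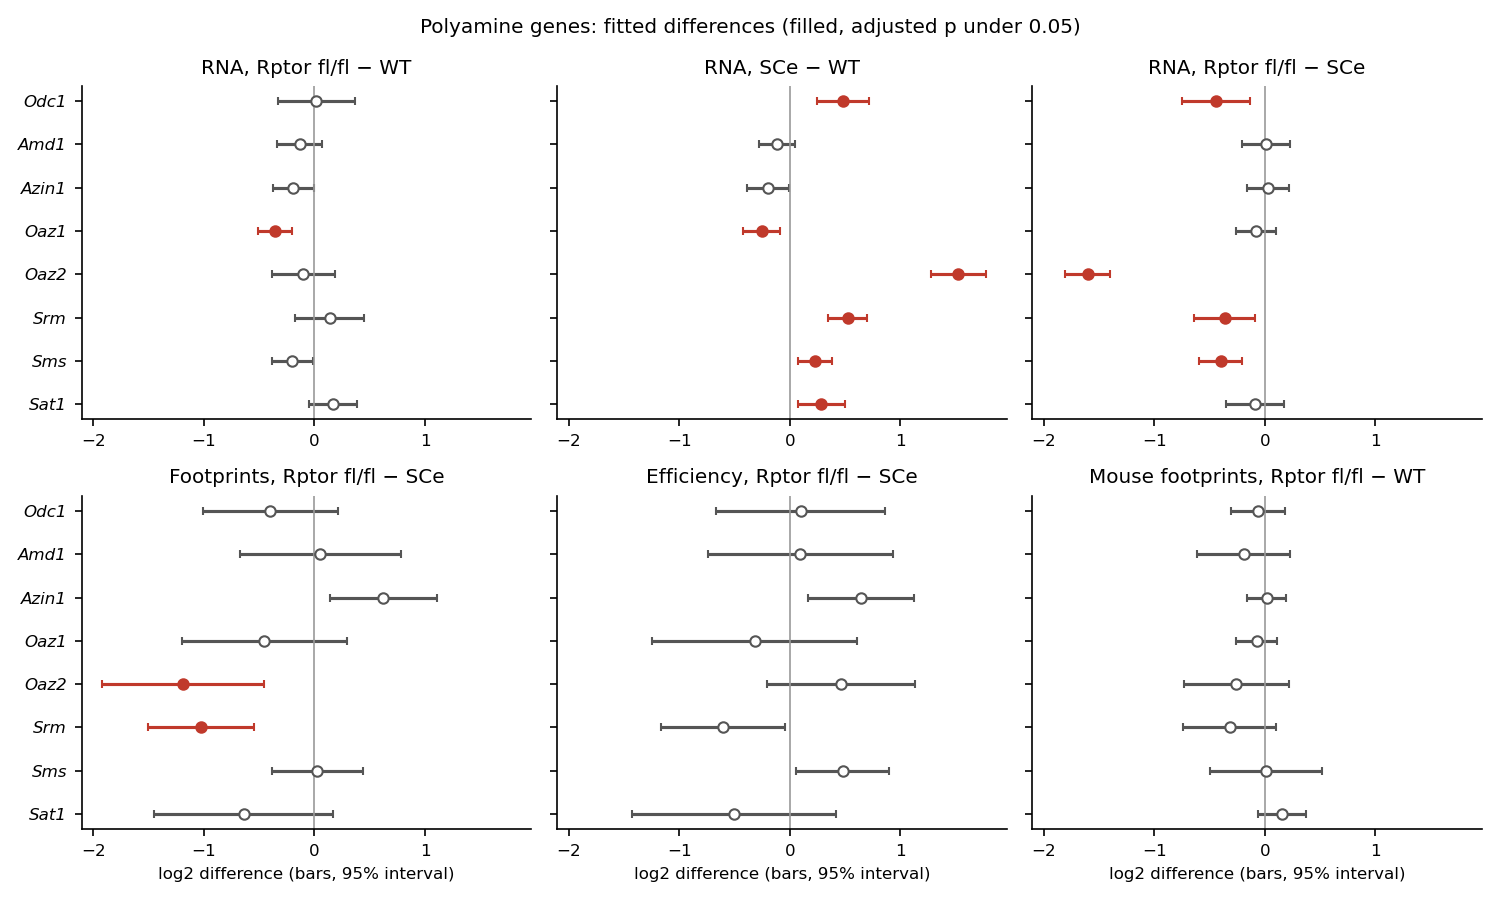
Fitted log2 differences of the 8 genes (horizontal axis, bars are 95% intervals) in 6 comparisons, with filled points for an adjusted p under 0.05. Oaz2 stands furthest from 0 in RNA wherever SCe enters, at 1.53 against WT and -1.61 against Rptor fl/fl.

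Between Rptor fl/fl and SCe organoids 4 of the 8 genes passed in RNA, all lower in Rptor fl/fl, where 42.7% of 15103 genes passed, 21% higher and 21.8% lower. This comparison shares its Rptor fl/fl and SCe lines with the comparisons against WT. Oaz2 was at 14.4 and 14.9 CPM in Rptor fl/fl and 43.1 to 45.8 CPM in SCe (-1.61, SE 0.080, adjusted p = 0.000987), with no overlap. Odc1 (-0.44, adjusted p = 0.0367), Srm (-0.36, adjusted p = 0.0466) and Sms (-0.40, adjusted p = 0.0133) followed at a smaller size. Amd1, Azin1, Oaz1 and Sat1 had differences between -0.090 and 0.03 and did not pass. Without Rptor fl/fl line 2 the call of Oaz2 was the only one kept. The summed level of the goblet cell markers was 2837 to 3904 CPM in Rptor fl/fl and 245 to 428 CPM in SCe, and that of the stromal markers 1.44 to 3.12 and 70.1 to 116 CPM. Their part in these differences was not tested.

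On coding sequences 2 of the 8 genes had fewer footprints in the organoid libraries labelled Rptor fl/fl than in SCe, where 16.5% of 10817 genes passed, 6.63% higher and 9.84% lower. For Srm, the spermidine synthase, the libraries held 42.2, 49.9 and 47.5 CPM in Rptor fl/fl and 120, 93.2 and 72.9 CPM in SCe. The groups did not overlap and the log2 difference was -1.03 (SE 0.21, adjusted p = 0.0128). Oaz2 rested on far fewer reads, 38, 38 and 50 footprints in Rptor fl/fl and 16, 19 and 73 in SCe. That gave 6.32, 6.04 and 6.09 CPM against 8.68, 16.3 and 16.9 CPM, without overlap (-1.19, SE 0.32, adjusted p = 0.0384). Neither call was kept when any 1 of the Rptor fl/fl libraries was left out, with adjusted p from 0.0544 to 0.145, while the log2 differences stayed between -0.96 and -1.20 in those fits. Oaz2 was also lost without SCe replicate 2 (adjusted p = 0.0858) or 3 (adjusted p = 0.0962).

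Azin1 pointed the other way on coding sequences. It was at 39.2, 39.9 and 42.5 CPM in Rptor fl/fl and at 20.1, 26.5 and 31.4 CPM in SCe, so each Rptor fl/fl library lay above each SCe library. The difference of 0.62 (SE 0.21) did not pass (adjusted p = 0.0807), and passed without SCe replicate 3 (adjusted p = 0.0272). With an offset for effective length it was 1.70 (adjusted p = 0.328), and the difference of Odc1 given next then was 1.73. The remaining genes showed wide spread in SCe. Oaz1 had 446, 216 and 168 CPM there and 208, 208 and 190 CPM in Rptor fl/fl (-0.45, interval -1.20 to 0.29), and its difference was 0.087 without SCe replicate 1. Sat1 had 62.4, 18.0 and 37.5 CPM in SCe against 25.4, 26.8 and 24.6 CPM (-0.64, interval -1.45 to 0.17), and Odc1 had 153, 68.4 and 126 CPM against 98.5, 77.5 and 89.6 CPM (-0.40, interval -1.01 to 0.21). For these 3 genes the Rptor fl/fl libraries lay inside the SCe range. Sms differed by 0.026 (interval -0.39 to 0.44). Amd1 differed by 0.052, and by -0.36 with its copy Amd2 added, and passed in neither case. Vim, a gene of stromal and of dedifferentiating epithelial cells, was at 139 to 808 CPM in SCe footprints and 4.45 to 7.81 CPM in Rptor fl/fl, whereas the other 4 stromal markers were at or near 0 in both. The summed level of 5 enterocyte markers was 812 to 2772 CPM in SCe and 6554 to 7143 CPM in Rptor fl/fl. The part of either in these differences was not tested.

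**Figure D3:**
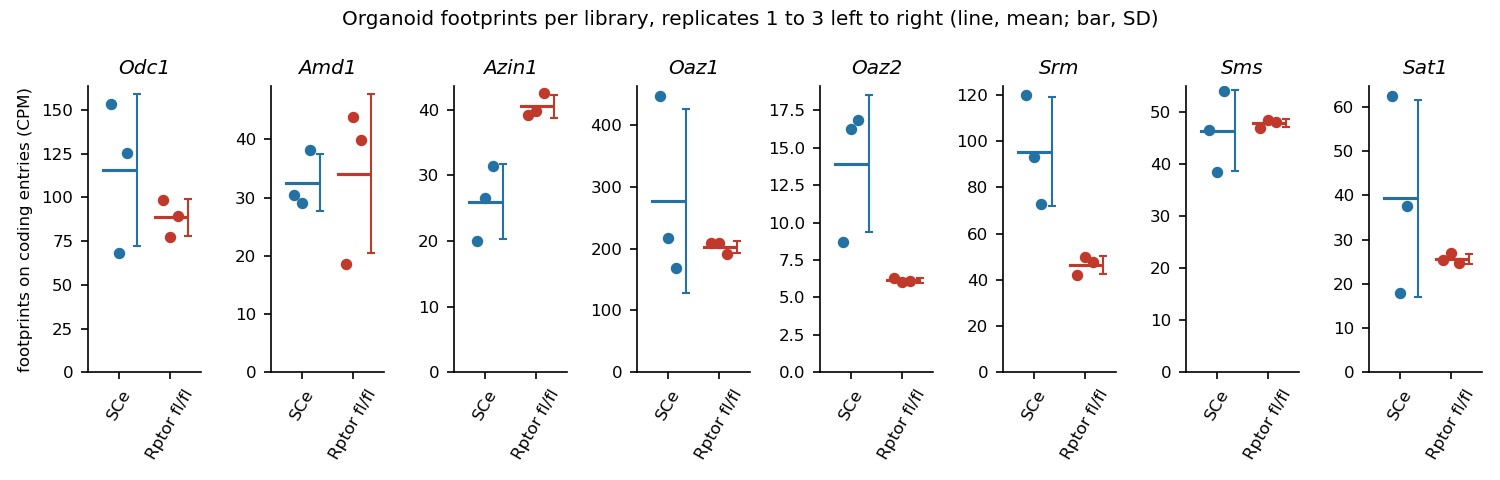
Footprints on coding entries (CPM, axis from 0 in each panel) in the 3 SCe and the 3 Rptor fl/fl organoid libraries, with lines at the mean and bars for the SD. The Rptor fl/fl libraries lie close together for most genes, apart from Amd1, while Oaz1, Odc1 and Sat1 spread widely in SCe.

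Translation efficiency, the change in footprints beyond that in RNA (an interaction term in a joint fit of both assays), gave no call among the 8 genes by edgeR, where 2.93% of 10747 genes passed, 1.12% higher and 1.81% lower. At an unadjusted threshold of 0.05 there were 3 (Azin1, Sms and Srm), beside 2177 of the 10747 genes. DESeq2 called 1 (Azin1), and it also called far more of all genes than edgeR did, as given in the last section. The efficiency of Azin1 was 0.64 higher in Rptor fl/fl than in SCe on the log2 scale (SE 0.22, interval 0.17 to 1.12, adjusted p = 0.133). It passed with DESeq2 (0.60, adjusted p = 0.0173) and without SCe Ribo-seq replicate 3 (0.86, adjusted p = 0.0332), and over all alternatives adjusted p ran from 0.0173 to 0.508 and the difference from 0.48 to 1.73, the latter with an offset for effective length. Srm had -0.61 (interval -1.17 to -0.044, adjusted p = 0.215) and Sms 0.48 (interval 0.059 to 0.90, adjusted p = 0.191). For Oaz2, whose RNA and footprints were both lower, the efficiency differed by 0.46 (interval -0.21 to 1.14). Odc1 differed by 0.098 (interval -0.67 to 0.86), and by 2.22 with the length offset (adjusted p = 0.272). Sat1 differed by -0.50 (interval -1.43 to 0.42), Oaz1 by -0.32 (interval -1.25 to 0.61) and Amd1 by 0.095 (interval -0.74 to 0.93).

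Azin1 and Sat1 carried a large share of their footprints on the 5′ UTR. Odc1 and Amd1 (with Amd2) had smaller shares, still above the median gene, whereas the pooled shares of Oaz1, Srm and Sms lay below it. The deposited 5′ entries cover the whole annotated 5′ UTR plus 11 bases, not single uORFs, so a count there does not say which frame was occupied. The share is not corrected for length, and the percentiles rank genes whatever the length of their 5′ UTR. The entry holding most 5′ footprints had 758 bases for Azin1, 500 for Odc1, 339 for Amd1 and 188 for Sat1. For Oaz1, Srm and Sms it had 78, 128 and 124 bases. The part of length in the shares was not tested. Over all genes the 5′ entries took 2.97% to 6.99% of the footprints of a library, and the median share of a gene was 4.55% in SCe and 4.22% in Rptor fl/fl, over 10133 and 10132 genes with at least 50 footprints in all. For Azin1 this share reached 67.8%, 59.7% and 52.8% in SCe, against 54.1%, 53.9% and 46.5% in Rptor fl/fl organoids. It thus carried about as many footprints ahead of its coding sequence as on it, 278 against 236 in Rptor fl/fl replicate 1. Its pooled shares, 57.5% and 51.1%, stood at the 98.1st and 97.8th percentile of genes.

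Sat1 was next, at 47.5%, 38.2% and 31.4% in SCe and 42.0%, 42.3% and 37.8% in Rptor fl/fl, at the 95.5th and 96.2nd percentile. Odc1 had 22.7%, 36.0% and 12.0% in SCe and 14.9%, 17.7% and 17.0% in Rptor fl/fl, at the 84.2nd and 82.9th percentile by pooled share. Amd1 with Amd2 had 19.3%, 11.8% and 16.2% in SCe and 14.8%, 15.9% and 21.0% in Rptor fl/fl, at the 82.1st and 84.3rd percentile. All 4 of these genes, the ones with short upstream frames printed above, lay above the median of all genes in every library once Amd2 was added to Amd1. Exact (Clopper-Pearson) 95% intervals in Rptor fl/fl replicate 1 were 49.7% to 58.5% for Azin1 and 36.0% to 48.3% for Sat1, and they cover counting error only.

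The other 4 genes had few 5′ footprints. Oaz1, the most occupied gene of the group, had 9, 14 and 11 in Rptor fl/fl beside 1253, 1310 and 1563 on its coding sequence, a share of 0.823% ± 0.203 (SD, n = 3). Srm had 1.04% ± 0.113 and Sms 0.926% ± 0.153 in Rptor fl/fl. Sms differs here from the genes above although the 5′ UTR of 1 of its transcripts, 334 bases long, holds 4 ATGs. The entry of that transcript was given 0 footprints in SCe and 2 in Rptor fl/fl. The entry of 124 bases, from another transcript, was given 8 and 7, and upstream frames were not listed for it. In SCe the shares of Oaz2, Srm and Sms rested on at most 10 footprints a library. Oaz2 had 8, 7 and 0 (33.3%, 26.9% and 0%), where the exact 95% interval of 0 of 73 footprints reaches up to 4.93%.

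**Figure D4:**
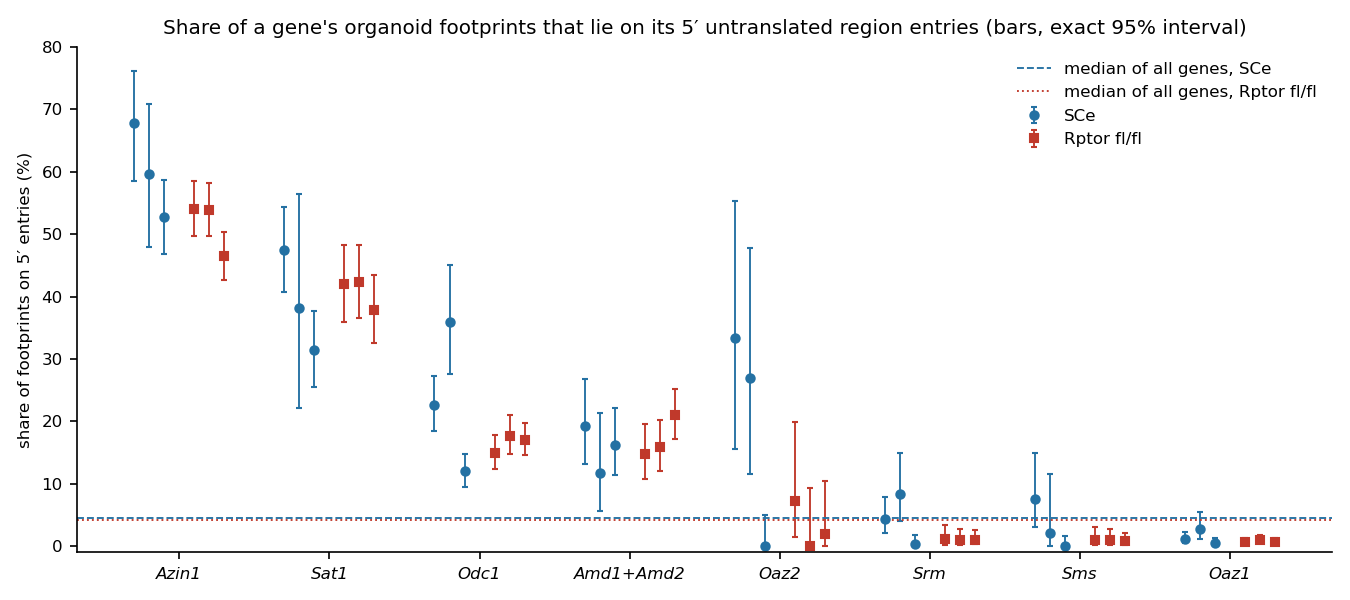
Share of the footprints of each gene that lie on its 5′ UTR entries (%), for each of the 3 SCe (circles) and 3 Rptor fl/fl libraries (squares), with exact 95% intervals and the medians of all genes as lines. Azin1 and Sat1 lie above 30% in all 6 libraries, against medians of 4.55% and 4.22%.

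Only Odc1, Amd1, Azin1 and Sat1 had enough 5′ footprints to be tested between the groups, and by edgeR none passed, neither at an unadjusted threshold of 0.05 nor with DESeq2. Over all genes 3.53% of 3998 passed, 1.75% higher and 1.78% lower, and 710 were at an unadjusted 0.05. Without SCe replicate 3, Oaz2 and Srm entered the test and passed, so that 1 library decided whether 0 or 2 of the members were called. They cleared the count filter through SCe replicates 1 and 2, where they are high. Oaz2 had 8 and 7 footprints there and Srm 10 and 10, against 3, 0 and 1 and 3, 3 and 4 in Rptor fl/fl. These 2 calls therefore follow in part from the filter and are no support for a difference. Azin1 had 1218, 1133 and 1014 CPM of 5′ footprints in Rptor fl/fl and 665, 777 and 1269 CPM in SCe (log2 difference 0.31, interval -0.38 to 0.99), and these overlapped. Odc1 had 456, 405 and 505 CPM against 708, 760 and 618 CPM, each Rptor fl/fl library below each SCe library (-0.61, interval -1.23 to 0.023, adjusted p = 0.295). Sat1 had 486, 478 and 412 CPM, within the SCe range of 220 to 887 CPM (-0.36, interval -1.26 to 0.54).

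The 5′ entries of Amd1 and Amd2 cannot be read apart. Salmon placed 0, 25 and 63 footprints on Amd1 and 39, 27 and 24 on Amd2 in Rptor fl/fl, and 27, 9 and 32 on Amd1 and 0 on Amd2 in each SCe library. Amd2 alone passed (adjusted p = 0.0157), but the sum of both genes differed by 0.0005 on the log2 scale. Relative to the coding sequence, with the library as a block, no gene passed among 3913 by edgeR (0%), with 463 at an unadjusted 0.05 and 16 called by DESeq2. The 5′ footprints of Azin1 relative to its coding footprints differed by -0.20 (interval -0.89 to 0.48), those of Odc1 by -0.12 (interval -0.92 to 0.68) and those of Sat1 by 0.41 (interval -0.28 to 1.1). Those of Amd1 differed by -1.36 alone and by 0.43 with Amd2 added. With an offset for effective length Azin1 stood at -1.80 and Odc1 at -1.91, outside these intervals, and neither passed (adjusted p = 0.463 and 0.431).

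In mice, footprints of Rptor fl/fl and WT passed the threshold for 0 of the 8 genes by edgeR, for 0 at an unadjusted 0.05 and for 0 by DESeq2. By edgeR 13.4% of 11515 genes passed, 7.47% higher and 5.97% lower, and 3090 were at an unadjusted 0.05. Azin1 was at 128, 130 and 125 CPM in Rptor fl/fl mice and 128, 129 and 123 CPM in WT mice (log2 difference 0.015, interval -0.16 to 0.19). Oaz1 was at 119, 126 and 119 CPM against 118, 124 and 135 CPM (-0.076, interval -0.26 to 0.11). These groups overlapped closely. Odc1 was at 48.4, 43.2 and 44.3 CPM against 41.7, 47.5 and 48.9 CPM (-0.063, interval -0.31 to 0.18).

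Sat1 was at 63.2, 68.5 and 68.8 CPM in Rptor fl/fl mice and at 54.4, 65.3 and 59.0 CPM in WT mice (0.15, interval -0.067 to 0.37). Srm was lower in each Rptor fl/fl mouse, at 10.9, 9.44 and 10.9 CPM against 15.2, 14.6 and 11.7 CPM, without passing (-0.32, interval -0.74 to 0.10, adjusted p = 0.333). Oaz2 was likewise at 6.59, 8.83 and 8.46 CPM against 10.1, 9.13 and 9.86 CPM (-0.26, interval -0.74 to 0.22). Amd1 (-0.19) and Sms (0.0088) overlapped between the groups. The counts behind Amd1, Oaz2, Srm and Sms were small in the shallowest WT library, between 8 and 12 footprints.

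A list of 31 other genes around the pathway was counted in the same comparisons. It covers back-conversion, copies of the members, genes around arginine and ornithine, S-adenosylmethionine supply, methylthioadenosine salvage, eIF5A and its hypusination, and transport. In RNA of Rptor fl/fl against WT organoids, 2 of 28 tested were higher and 5 lower, where 11.6% and 11% of all genes were. Of the 4 genes grouped around arginine and ornithine 3 fell. They were Oat, which interconverts ornithine and glutamate semialdehyde, at 513 and 632 CPM against 1221 and 1010 CPM (-0.96, adjusted p = 0.0205), Agmat (-1.48, adjusted p = 0.0281) and Arg2, the mitochondrial arginase (-1.25, adjusted p = 0.0414). Slc3a2, a subunit of amino acid transporters, also fell (-0.43, adjusted p = 0.0320), as did Mat2b (-0.30, adjusted p = 0.0358). The salvage genes that rose were Mtap (0.60, adjusted p = 0.0445) and Mri1 (0.32, adjusted p = 0.0442).

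In RNA of SCe against WT organoids 8 of 30 were higher and 6 lower, near the 22.4% and 19.9% of all genes. The rises included Eif5a2, a copy of the translation factor that carries the spermidine-derived hypusine (3.15, adjusted p = 0.00166), Azin2 (2.78, adjusted p = 0.00800), Apip (1.40, adjusted p = 0.00355), Mtap (0.81, adjusted p = 0.00327), Mat2a (0.65, adjusted p = 0.00394) and Adi1 (0.45, adjusted p = 0.00908). Mat1a was also called (2.77, adjusted p = 0.00497, at under 1 CPM). It was not tested between Rptor fl/fl and WT, so it passed the count filter only through the SCe lines, where it is high. Its p-value is therefore no support for a rise. Mri1 (-0.95, adjusted p = 0.00189), Mat2b (-0.53, adjusted p = 0.00587) and the transporter gene Slc18b1 (-0.40, adjusted p = 0.00834) fell. Members of the salvage list thus moved in both directions, 3 up and 2 down of 5. Against SCe, Rptor fl/fl RNA had 3 of 30 higher and 11 lower (21% and 21.8% of all genes), with Eif5a2 (-2.98, adjusted p = 0.00107) and Mri1 (1.30, adjusted p = 0.00112) at the smallest adjusted p.

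In footprints of Rptor fl/fl against SCe organoids 2 of 23 were higher and 4 lower, where 6.63% and 9.84% of all genes were. Arg2 was at 143, 125 and 136 CPM in Rptor fl/fl and at 32.0, 24.0 and 29.8 CPM in SCe, far apart (2.22, adjusted p = 0.000344), and Mri1 also rose (1.05, adjusted p = 0.00778). Apip (-1.08), Eif5a2 (-3.24), the polyamine transporter gene Atp13a3 (-0.79) and Mtap (-0.66) fell, with adjusted p between 0.0134 and 0.0492. In translation efficiency 0 of 23 passed by edgeR (2.93% of all genes), with 4 at an unadjusted 0.05 and 2 called by DESeq2. Of all 10747 genes 2177 were at an unadjusted 0.05. In mice 1 of 23 was higher and 2 lower (7.47% and 5.97% of all genes), and DESeq2 called 1 in all. Arg1, the cytosolic arginase that makes ornithine, was at 39.5, 34.4 and 40.8 CPM in Rptor fl/fl mice and at 3.79, 6.39 and 4.93 CPM in WT mice, without overlap (2.88, adjusted p = 7.48e-08). The erythroid markers given above differed between the same mice, as did the summed level of 5 stromal markers (1042 to 1226 CPM in Rptor fl/fl and 821 to 830 CPM in WT), and their part in this value was not tested. Mat2a, which encodes a subunit that makes S-adenosylmethionine, fell (-0.36, adjusted p = 0.0439).

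Across the 7 RNA-seq lines the genes whose log2 CPM followed Odc1 most closely were Olfr1388 (r = 0.989), Heatr1 (r = 0.988) and Fntb (r = 0.986), of 13913 genes compared. For Sat1 they were Synpo2 (r = 0.974), Zfp870 (r = 0.973) and Plxna3 (r = 0.970). These are descriptions over 7 points that share their culture and genotype groups.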

How the data were processed

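Per the labels and the study's methods, adapters were cut off with cutadapt 1.18 and, after ribosomal RNA reads had been taken out, the remainder was quantified by Salmon 1.1.0 against GENCODE vM21 (mm10). Tool versions are those of the submitters' processing notes. The deposited files give, for each sequence, an estimated count, a TPM value computed by the authors' Salmon run, and nominal and effective lengths. The authors' further table of translation efficiency holds their own dispersions, ratios, log2 changes and p-values, and was not used here. Organoid coding entries had 46 bases beyond the coding sequence and stop codon, so a footprint at the start codon could be assigned to either kind of entry. Mouse entries held the 5′ UTR, the coding sequence, the stop codon and 31 bases more.

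The 8 members and all lists were chosen with earlier results of these data known. Estimated counts were summed per gene, and over the technical libraries of a line, and rounded. Levels per length were averaged over technical libraries. Each comparison was fitted on its own groups with edgeR 4.0.16 (R 4.3.3) after filterByExpr and TMM scaling, by the quasi-likelihood test with Benjamini-Hochberg adjustment at 0.05 over all genes tested. Fits were tested on simulated data. CPM uses the scaled library size, so values differ slightly between comparisons. All members were named in every comparison, and of the other list genes up to 10 with the smallest adjusted p among those past the threshold. The result of 1 list gene is not reported here. Olfm4, Smoc2 and Vim were singled out after their values were seen. Technical libraries of a line were the closest pairs of libraries in RNA-seq. Alternatives were DESeq2 1.42.0, no count filter, an effective length offset, the replicate number as a block, each replicate left out, separate technical libraries, Amd1 and Amd2 summed, a joint library size for both kinds of Ribo-seq entry, and deposited TPM for levels. The labels do not say that replicates of a group came from separate animals except in mice. The study's legends count the WT and Rptor fl/fl lines of the RNA-seq as biological replicates, without naming animals there. For organoids the p-values thus measure the spread between these cultures. Pooled footprint shares and percentiles have no test.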

Additional observations from a re-analysis of the deposited data

How the results depend on the processing

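Calls among the 8 genes rested on few replicates. In RNA of Rptor fl/fl against WT, 0 genes were called with any line left out and 3 with technical libraries separate (7208 over all genes, and 939 to 2126 with a line left out). In RNA of SCe against WT, 1 to 7 were called with a line left out (2027 to 9530 over all genes), and in RNA of Rptor fl/fl against SCe 1 to 4 (2509 to 9101). In footprints it was 0 to 2 (669 to 2682), in translation efficiency 0 to 1 (25 to 951), in 5′ footprints 0 to 2 (4 to 413; the 2 were Oaz2 and Srm without SCe replicate 3, which passed the count filter there) and in 5′ relative to coding footprints 0 (0 to 42). In mice it was 0 throughout (897 to 1954).

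With the replicate block, RNA of SCe against WT kept 2 members (3154 genes), RNA of Rptor fl/fl against SCe 1 (3413 genes) and footprints 1 (Srm), while 4 genes passed in translation efficiency and 66 in 5′ footprints. Same-numbered Ribo-seq libraries of organoids correlated in their deviations at -0.054 to 0.027. In RNA-seq the correlations were 0.219 to 0.416, the latter between WT and Rptor fl/fl lines. The study's methods mention paired samples, from Rptor fl/fl organoids induced in culture, without naming the libraries. Only 2 numbers are shared and the labels name nothing that a number marks, so a pairing was not taken as given. Under the block Amd1 turned to -0.0093 in RNA and -0.018 in footprints against SCe, and Sms to -0.063 in mice. With the effective length offset 1 member (Srm) and 654 genes passed in footprints, 116 in efficiency, 30 in 5′ footprints and 678 in mice. Odc1 footprints then turned to 1.73, Sms footprints to -1.47, Sms efficiency to -1.12 and Sat1 5′ relative to coding to -0.31. DESeq2 gave 1206 genes and 1 member (Azin1) in efficiency and 16 genes in 5′ relative to coding. Without a count filter 383 genes passed in 5′ footprints and 64 relative to coding, and with a joint library size 15. With Amd2 added, Amd1 turned to -0.36 in footprints, -0.30 in efficiency, 0.0005 in 5′ footprints and 0.43 relative to coding. With technical libraries separate, Amd1 (-0.024) and Azin1 (-0.0020) turned in RNA against SCe. The causes of these changes were not tested.

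Other changes of sign came from leaving out a replicate, in values that did not pass. Against WT in RNA these were Odc1 (-0.15 to 0.18), Oaz2 (-0.21 to 0.012) and Srm (-0.023 to 0.30). Against SCe in RNA they were Amd1 (-0.078 to 0.10), Azin1 (-0.0007 to 0.071) and Sat1 (-0.19 to 0.014), and in footprints Amd1 (-0.15 to 0.35), Oaz1 (-0.71 to 0.087) and Sms (-0.075 to 0.17). In efficiency they were Amd1 (-0.12 to 0.38), Oaz1 (-0.58 to 0.21) and Odc1 (-0.15 to 0.32), in 5′ footprints Sat1 (-0.69 to 0.095), in 5′ relative to coding Azin1 (-0.28 to 0.015) and Odc1 (-0.34 to 0.26), and in mice Azin1 (-0.0077 to 0.035) and Sms (-0.20 to 0.16). An arm left with 1 line was assumed to vary like the other group.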
